A study of Mus musculus with 32 samples.

Results

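Transcripts of 9 Hedgehog pathway genes were followed in whole mouse brain: the ligand Shh, the receptors Ptch1 and Hhip, the coreceptors Boc and Cdon, the transducer Smo, and the transcription factors Gli1, Gli2 and Gli3. They were picked by symbol as components of the pathway, out of 55291 gene symbols, and all 9 were present in all 4 deposited tables and passed the filter on low counts in every comparison. The brains were from C57BL/6J animals, either wild type (WT, Dhcr7+/+) or knockout (KO, Dhcr7-/-), taken at 4 ages, 3 embryonic ones (E12.5, then E14.5, then E16.5, by day of gestation) and birth (PND0). All 8 groups had 4 libraries, so 16 WT and 16 KO libraries were compared. The labels number the replicates of each group but name no litter or animal, so the p-values measure the spread between these libraries, which may be in part technical. They name no restriction of the deletion to a cell type and no treatment.

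Hedgehog ligands bind Ptch1, which otherwise holds Smo inactive, and active Smo at the primary cilium turns the Gli proteins toward activation of their targets. Gli1, Ptch1 and Hhip are themselves such targets, so their transcripts are commonly read as the output of the pathway, while Ptch1 and Hhip also bind ligand and limit the response. Boc and Cdon help cells to bind ligand, Gli2 acts mainly as an activator and Gli3 largely as a repressor. In the embryonic brain the pathway patterns ventral territories and later drives division of cerebellar granule cell precursors. Dhcr7 encodes the enzyme that converts 7-dehydrocholesterol to cholesterol, and its loss models Smith-Lemli-Opitz syndrome. Sterols bind Smo and cholesterol is attached to the ligand, which is why the pathway is of interest in these animals.

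RefSeq start sites on GRCm38.p6 gave promoters for 6 of the 9 genes, namely Ptch1, Hhip, Cdon, Smo, Gli2 and Gli3. Those of Ptch1 and Hhip, the feedback inhibitors with the lowest KO levels relative to WT at birth, and of Smo, the sterol-binding transducer, are shown as the 250 bases before the start site. Capitals mark the stretch closest to the Gli consensus GACCACCCA on either strand where it had at most 2 mismatches.
Ptch1, chr13:63565736-63565985, minus strand: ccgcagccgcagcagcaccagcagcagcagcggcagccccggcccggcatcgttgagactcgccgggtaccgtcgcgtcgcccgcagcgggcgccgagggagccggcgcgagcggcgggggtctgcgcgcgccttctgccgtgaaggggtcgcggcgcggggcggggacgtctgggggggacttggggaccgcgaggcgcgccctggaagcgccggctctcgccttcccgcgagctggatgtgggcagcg
Hhip, chr8:80058009-80058258, minus strand: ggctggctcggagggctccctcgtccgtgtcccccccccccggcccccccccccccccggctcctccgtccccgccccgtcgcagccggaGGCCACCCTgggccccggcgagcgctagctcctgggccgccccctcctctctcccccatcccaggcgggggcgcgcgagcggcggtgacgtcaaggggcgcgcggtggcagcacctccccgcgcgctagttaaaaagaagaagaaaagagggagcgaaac
Smo, chr6:29735247-29735496, plus strand: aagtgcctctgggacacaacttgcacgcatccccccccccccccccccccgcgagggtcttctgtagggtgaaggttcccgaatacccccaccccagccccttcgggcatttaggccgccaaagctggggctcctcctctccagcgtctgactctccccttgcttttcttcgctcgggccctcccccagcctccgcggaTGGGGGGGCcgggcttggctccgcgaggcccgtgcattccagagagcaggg
None of the 6 windows held the exact consensus or a stretch with 1 mismatch. Over all 32851 promoters of the table, 0.225% of these windows held the exact consensus and 5.79% a stretch with at most 1 mismatch. A stretch with at most 2 mismatches stood in the windows of Hhip, Smo and Gli2, and also in 51.8% of all windows. The Ptch1 start site used here lies 7863 bases inside the GENCODE gene, whose upstream starts are not covered, while that of Hhip lies 2 bases before the GENCODE start. GC content was 78.4% for Ptch1, 76% for Hhip and 68.4% for Smo.

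The libraries were 13.87 to 28.32 M counts deep. Levels are given as CPM (counts per M of the library total, with TMM scaling over all 32 libraries). Dhcr7 itself ran from 58.6 to 102 CPM in the WT and from 11.4 to 26.7 CPM in the KO libraries, and at every stage all 4 KO libraries were below all 4 WT libraries. The 7 neuron markers summed to between 2360 and 6280 CPM in every library. A pair of E12.5 libraries stood apart, and further libraries did so on single measures. WT replicate 1 carried 746 CPM of 7 muscle, cartilage and skin markers, against 286 to 383 CPM in the other WT and 244 to 351 CPM in the KO libraries, together with the least telencephalon (306 CPM) and the most hindbrain and spinal cord markers (25.4 CPM). In KO replicate 1 a ribosomal RNA gene took 5.64% of counts, against at most 0.376% in the other E12.5 libraries. KO differences at E12.5 are therefore also given without replicate 1 of both genotypes, a fit not planned in advance, and WT changes from E12.5 without WT replicate 1. E12.5 WT replicate 3 carried 3090 CPM of blood markers (368 to 988 CPM in the other E12.5 libraries), and PND0 KO replicate 3 carried 2170 CPM. At E16.5, WT replicate 1 had 3.75% ribosomal RNA counts (others at most 0.626%). E16.5 WT replicate 2 had the least telencephalon (862 CPM) and most hindbrain and spinal cord markers (12.6 CPM) of its stage. These were left out only in the fits that drop each library in turn.

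In the WT libraries all 9 genes had their highest mean at E12.5, and most ran down toward birth. Ptch1 and Hhip stood closest to their E12.5 mean at PND0, Hhip after a fall to 40.8% of it at E14.5. By PND0, Gli3 stood at 11.4% of its E12.5 mean, Shh at 17.7%, Gli2 at 21.2%, Cdon at 22.5%, Smo at 25.4%, Gli1 at 27.4% and Boc at 28.6%. Ptch1 stood at 61.1% and Hhip at 85.5%. Without E12.5 WT replicate 1, Gli1 stood at 41.5%, above Boc at 29.5%; Ptch1 stood at 65.5% and Hhip at 97.7%, and the other 5 between 11.4% and 27.4%. From E12.5 to E14.5, 7 of the 9 genes fell (edgeR quasi-likelihood test, Benjamini-Hochberg adjusted p under 0.05), where 30.5% of all genes tested fell. Without E12.5 WT replicate 1, 6 of the 9 fell, Boc no longer passing, and the changes of Shh, Ptch1, Hhip, Smo and Gli3 were -0.69, -0.20, -1.11, -0.49 and -0.60 on the log2 scale. From E14.5 to E16.5, 7 fell against 28.2% of all genes, and Hhip rose, as did 29.3% of all genes. From E16.5 to PND0, 4 fell (Boc, Cdon, Smo and Gli3) against 27.2% of all genes. The median log2 change of the 9 genes was -0.61, -1.08 and -0.34 over the 3 steps, beside -0.03, 0.01 and -0.01 over all genes. Each stage is 1 deposited table, so stage and sequencing batch cannot be told apart. In whole tissue, fewer expressing cells and less RNA per cell cannot be told apart either.

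**Figure D1:**
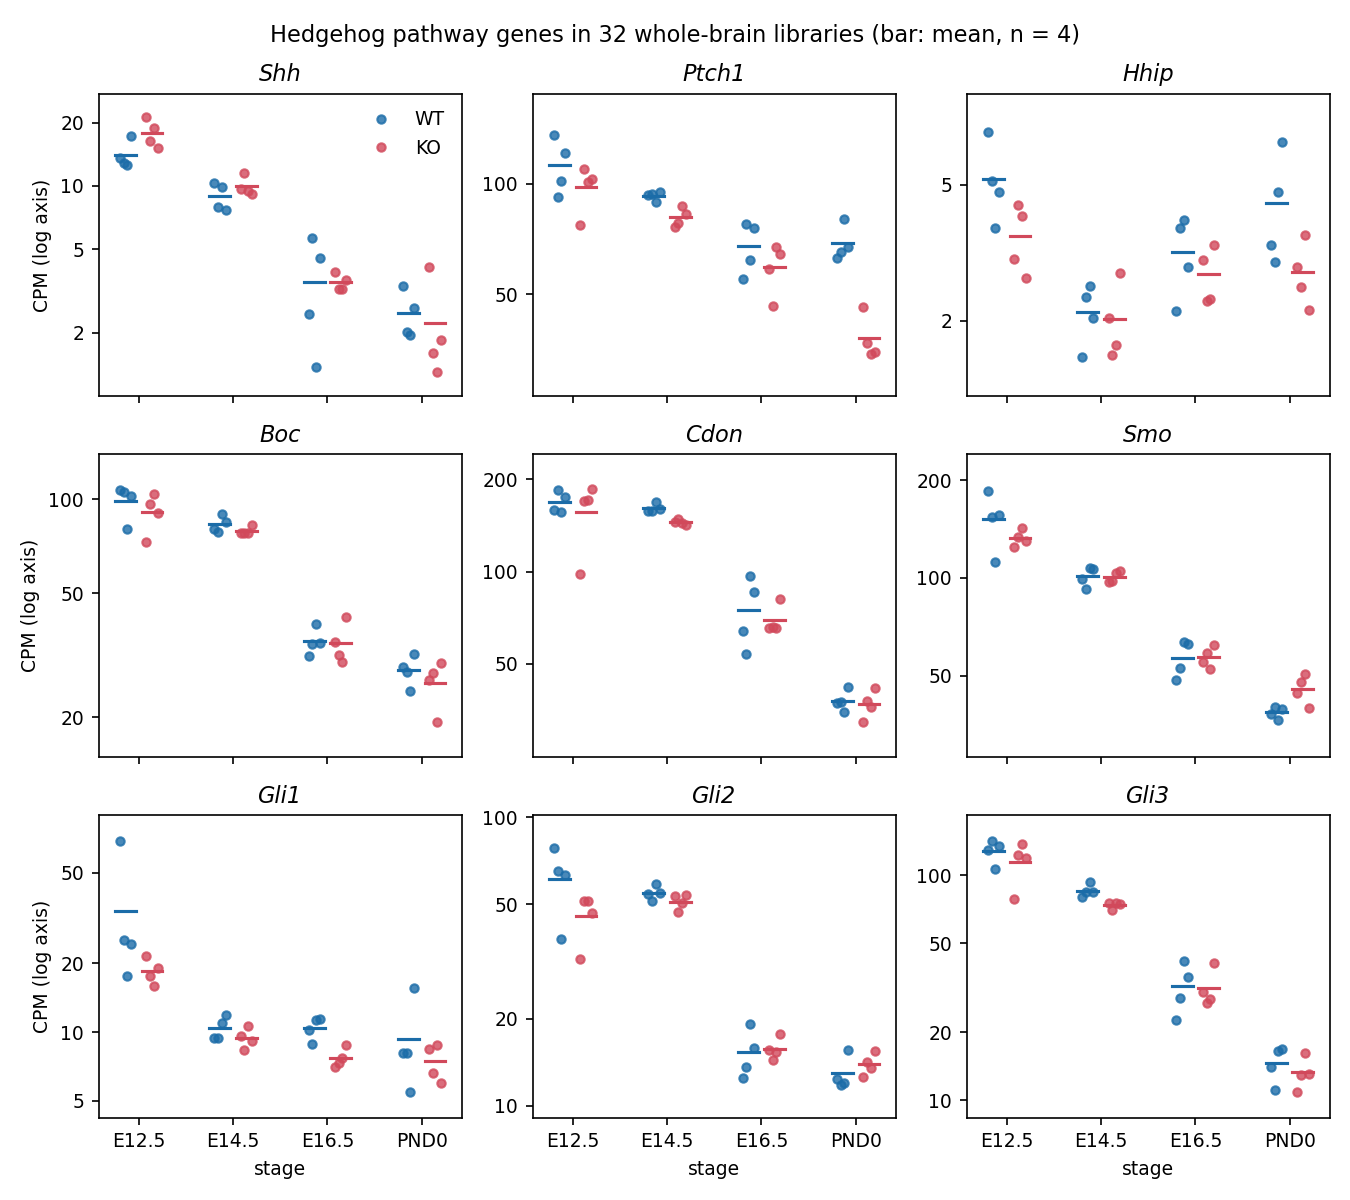
Levels of the 9 genes in CPM (log axis) by stage, 1 point per library and a bar at the mean of 4, WT in blue and KO in red. Most genes fall from E12.5 to PND0, Hhip is lowest at E14.5, and the KO points of Ptch1 lie between 34.3 and 46.1 CPM at PND0, below every WT point.

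Levels per kilobase of exonic length allow genes to be compared roughly. That length merges all annotated exons of a gene, from 2847 bases for Shh to 14185 bases for Ptch1, whichever isoforms were expressed. Close ranks therefore depend on the annotation. By this measure the WT brain at E12.5 held most Smo (27 ± 5.32 CPM per kb, SD, n = 4), Boc (22.2 ± 2.83) and Cdon (21.9 ± 1.75), whose libraries overlapped. These are the genes that receive and pass on the signal. Gli3 followed at 13.4 ± 1.63, then Gli2 at 8.89 ± 2.46, Ptch1 at 7.95 ± 1.38, Gli1 at 6.81 ± 4.68 and Shh at 4.93 ± 0.767 CPM per kb. Hhip was lowest at 0.571 ± 0.156 CPM per kb. At PND0 the order was Smo (6.87 ± 0.287), Boc (6.36 ± 0.705), Cdon (4.92 ± 0.384) and Ptch1 (4.85 ± 0.544), the last 2 being closer together than their spread. Gli2 (1.88 ± 0.258), Gli1 (1.86 ± 0.872) and Gli3 (1.53 ± 0.281) followed; Gli1 ranged from 1.1 to 3.12 and so spanned both others, while the ranges of Gli2 (1.72 to 2.27) and Gli3 (1.16 to 1.76) met only at their edges. Shh (0.875 ± 0.226) and Hhip (0.489 ± 0.185) came last. At E12.5 Ptch1 lay below Gli3 and within the spread of Gli2, and at PND0 it lay above both.

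**Figure D2:**
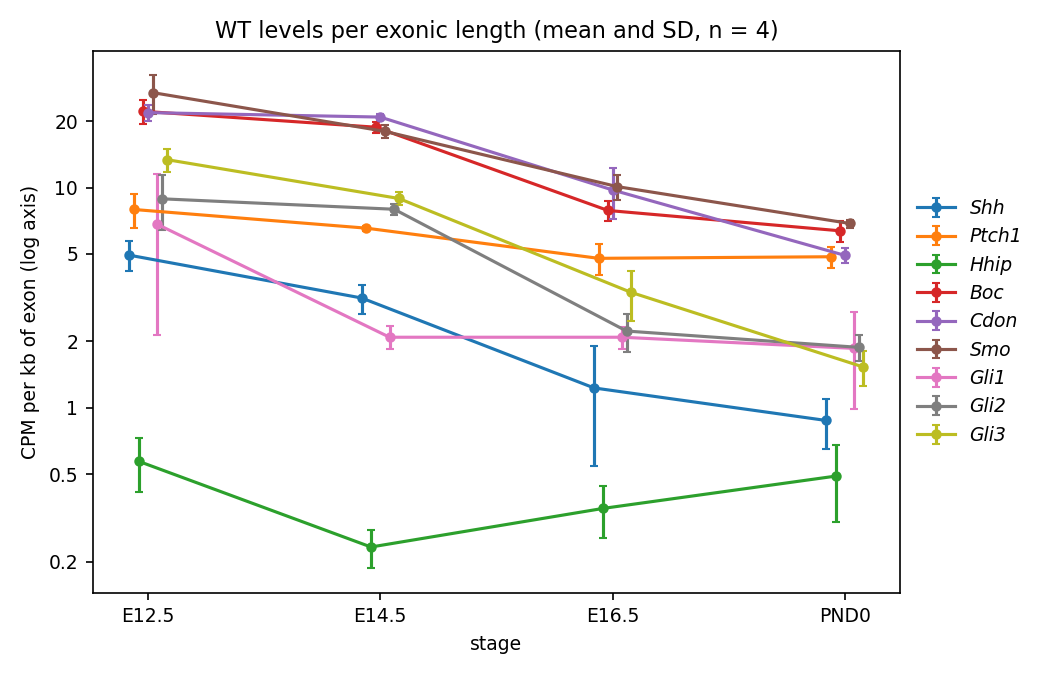
WT levels as CPM per kilobase of exon (log axis) by stage, mean and SD of 4 libraries, 1 line per gene. Ptch1 stays between 4.77 and 7.95 CPM per kb while Gli3 falls from 13.4 to 1.53 and Cdon from 21.9 to 4.92 CPM per kb.

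Shh, the ligand (chromosome 5, 28456815 to 28467256, minus strand, GRCm38), was measured at 13.5, 12.9, 12.55 and 17.3 CPM in the WT libraries of E12.5 and at 10.4, 7.97, 9.92 and 7.67 CPM at E14.5. It stood at 2.45, 5.67, 1.37 and 4.53 CPM at E16.5 and at 3.34, 2.03, 1.96 and 2.64 CPM at PND0. The first 3 stages did not overlap, while the libraries of E16.5 and PND0 did. The falls by 0.68 (SE 0.14, edgeR adjusted p = 0.00219) and 1.33 (SE 0.348, adjusted p = 0.0101) on the log2 scale passed the test, and the last step (-0.52, SE 0.368, adjusted p = 0.254) did not. Between 23 and 97 counts lay behind each WT value at E16.5. KO libraries followed the same course, with means of 17.8, 9.96, 3.48 and 2.22 CPM.

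Shh was the member with the highest KO to WT ratio at E12.5. Its KO libraries held 21.1, 16.4, 18.8 and 15.1 CPM, all above the WT mean of 14 CPM but overlapping the highest WT library. The log2 difference was 0.32 (95% interval 0.00 to 0.65), with an unadjusted p of 0.0515 and an adjusted p of 0.875 by edgeR. Without replicate 1 of both genotypes it was 0.21 (interval -0.11 to 0.53). At E14.5 the difference was 0.16 (interval -0.08 to 0.40), 1 stage later -0.02 (-0.82 to 0.77) and at birth -0.17 (-0.94 to 0.61), none past the threshold. At birth the KO libraries were spread widely: replicate 1 had 4.12 CPM and the other 3 had 1.3 to 1.85 CPM, below every WT library.

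Ptch1 encodes the ligand receptor that restrains Smo and is induced by the pathway (chromosome 13, 63508328 to 63573598, minus strand). It gave the clearest difference between genotypes, and it was found at birth. The WT libraries of PND0 held 62.8, 65.4, 80.1 and 67.2 CPM, and the KO libraries 46.1, 36.9, 34.3 and 34.8 CPM. The highest KO library lay below the lowest WT library, and the KO mean was 55.2% of the WT mean. The log2 difference was -0.86 (SE 0.112, 95% interval -1.10 to -0.63, edgeR adjusted p = 0.00248). It was the only one of the 9 genes past the threshold at PND0, where 1.03% of all genes tested were called lower in KO. Groups that did not overlap were seen for 11.9% of all genes at that stage, and for Ptch1 alone among the 9.

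The Ptch1 call at PND0 held when any of the 8 libraries was left out, with log2 differences from -0.97 to -0.79 and adjusted p from 0.00262 to 0.013. The share of counts from the ribosomal RNA gene was 1.8 to 2.78% in WT and 1.16 to 2.09% in KO at PND0; with it as a covariate the difference was -0.89 (SE 0.174) and the adjusted p 0.319. With offsets for transcript length the difference was -0.71 (SE 0.107, adjusted p = 0.0118).

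Composition also differed at PND0. Of 14 hindbrain and spinal cord markers, 13 were at 0 in all 4 KO libraries and the list summed to 0.238 to 0.515 CPM, against 1.41 to 10.4 CPM in WT. Single WT libraries had from 4 to 13 of the 14 markers at 0, so the count of zeros reached that of KO. The marker left, the glycine transporter gene Slc6a5, had 26 counts over the 4 KO libraries and 244 over the 4 WT libraries. Telencephalon markers summed to 924 to 1820 CPM in KO and 887 to 1210 CPM in WT, and cerebellar granule cell precursor markers, from cells known to respond to Shh, to 528 to 692 CPM in KO and 614 to 733 CPM in WT. Choroid plexus markers summed to 608 to 996 CPM in KO and 328 to 615 CPM in WT, with 5 of 6 on the higher side, and blood markers to 220 to 2170 CPM in KO and 190 to 251 CPM in WT. The part of these values in the Ptch1 difference was not tested.

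At the earlier stages Ptch1 was lower in KO by less. At E14.5 the WT libraries held 93, 93.8, 89.2 and 95.3 CPM and the KO libraries 76.3, 78.3, 87.1 and 82.8 CPM, without overlap. The log2 difference of -0.19 (SE 0.046, edgeR adjusted p = 0.0349) passed the threshold, but it was lost in 5 of the 8 fits that left out 1 library (WT replicate 1 or 4, or KO replicate 1, 2 or 4), with adjusted p up to 0.205. At E12.5 the KO libraries had 77.2, 110, 101 and 103 CPM and the WT libraries 136, 92.1, 102 and 121 CPM (log2 difference -0.22, interval -0.55 to 0.10, adjusted p = 0.875; -0.03, interval -0.23 to 0.17, without replicate 1 of both genotypes). At E16.5 the KO libraries had 58.7, 46.4, 67.2 and 64.5 CPM and the WT libraries 55.2, 77.9, 62 and 75.8 CPM (-0.21, interval -0.53 to 0.11, adjusted p = 0.604). Both of these stages overlapped.

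In WT, Ptch1 fell by 0.31 on the log2 scale from E12.5 to E14.5 (SE 0.105, edgeR adjusted p = 0.0301, lost in 5 of 8 fits with 1 library left out) and by 0.43 to E16.5 (SE 0.0903, adjusted p = 0.00125). From E16.5 to PND0 the WT change was 0.00 (interval -0.24 to 0.23), while the KO means were 59.2 CPM at E16.5 and 38 CPM at PND0, with no overlap of the KO libraries. Whether the KO effect changed with stage was tested across all 32 libraries. Ptch1 had the smallest p of the 9 genes (0.000748), but its adjusted p was 0.142 by edgeR, and none of the 9 passed, beside 0.0256% of all genes tested. Of the 9, only Ptch1 had an unadjusted p under 0.05, beside 2635 of the 19541 genes tested, and 1 in 9 is near that share. DESeq2's likelihood ratio test gave Ptch1 an adjusted p of 0.0173, with 344 genes called in all. Of the 32 edgeR fits with 1 library left out, 1 passed, that without E12.5 KO replicate 1 (adjusted p = 0.0156, 797 genes called in all). The rest gave adjusted p up to 0.319, and the other edgeR settings up to 0.229. The main edgeR fit called 5 genes in all.

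**Figure D3:**
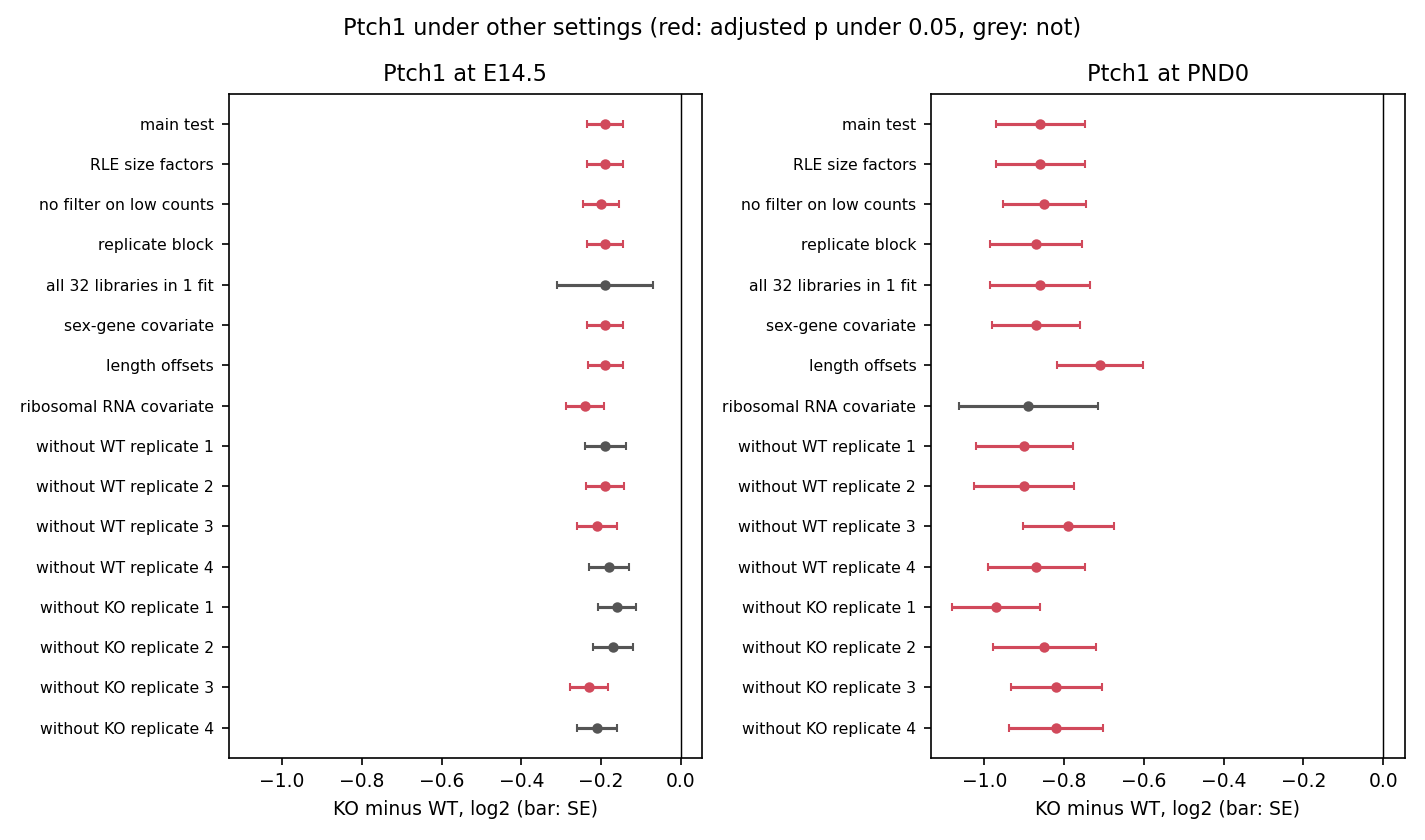
Log2 difference of Ptch1, KO minus WT, with its SE at E14.5 (left) and PND0 (right), under the main edgeR test and each alternative that gives an SE. Red points passed an adjusted p of 0.05; at PND0 all values lie between -0.97 and -0.71 and 1 of them, with the ribosomal RNA covariate, is grey.

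Hhip encodes a membrane protein that binds Hedgehog ligands and is induced by the pathway (chromosome 8, 79965851 to 80058006, minus strand). It was the least abundant of the 9 per length and the only one called higher at any WT step. The WT libraries held 7.11, 5.12, 3.74 and 4.76 CPM at E12.5, 1.56, 2.34, 2.53 and 2.03 CPM at E14.5, 2.13, 3.74, 3.95 and 2.87 CPM at E16.5, and 3.34, 2.98, 4.75 and 6.67 CPM at PND0. The fall by 1.31 (SE 0.231, edgeR adjusted p = 0.00082) to E14.5 and the rise of 0.61 (SE 0.226, adjusted p = 0.0308) to E16.5 passed the test. The rise was past the threshold in 4 of the 8 fits with 1 library left out and missed it in DESeq2 (adjusted p = 0.0521). The further difference to PND0 (0.46, SE 0.278, adjusted p = 0.179) did not pass.

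Hhip was on the lower side in KO at all 4 stages without a call. At PND0 the KO libraries held 2.88, 2.51, 3.56 and 2.14 CPM, and 3 of the 4 were below all WT libraries. The log2 difference was -0.69 (interval -1.30 to -0.07, unadjusted p = 0.031, edgeR adjusted p = 0.22). Without WT replicate 4, the library with the highest Hhip and the most hindbrain and spinal cord markers (10.4 CPM), it was -0.41 (adjusted p = 0.492). At E12.5 the KO libraries held 3.04, 4.36, 4.04 and 2.67 CPM (log2 difference -0.57, interval -1.12 to -0.03, edgeR adjusted p = 0.875). The difference was -0.38 without WT replicate 1, -0.70 without WT replicate 3 and -0.33 without replicate 1 of both genotypes. At E14.5 and E16.5 the differences were -0.07 (interval -0.55 to 0.41) and -0.23 (interval -0.69 to 0.23). A library held between 29 and 134 Hhip counts, which limits what can be seen at this depth.

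The coreceptors Boc (chromosome 16, 44485049 to 44558897, minus strand) and Cdon (chromosome 9, 35421128 to 35507652, plus strand) fell sharply after E14.5. WT Boc was at 107, 105, 80.2 and 102 CPM at E12.5 and 80.4, 78.9, 90.1 and 84.8 CPM at E14.5. It then stood at 31.4, 34.4, 39.8 and 34.6 CPM at E16.5 and 29, 28, 24.3 and 31.9 CPM at PND0. The step from E14.5 to E16.5 was -1.23 (SE 0.0726, edgeR adjusted p = 2.27e-09); the steps on either side of it, -0.27 and -0.34, had overlapping libraries and adjusted p of 0.0297 and 0.0155. The first of these was lost in 6 of the 8 fits with 1 library left out, of which the fit without E12.5 WT replicate 1 gave -0.21.

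For Cdon the first step was not called, and whether it differed from that of Boc was not tested. WT libraries held 159, 184, 156 and 176 CPM at E12.5 and 158, 157, 169 and 161 CPM at E14.5 (log2 change -0.09, interval -0.23 to 0.04). They held 64.1, 53.9, 97.1 and 85.7 CPM at E16.5 and 37.2, 37.7, 34.9 and 42 CPM at PND0, with changes of -1.08 (SE 0.186, edgeR adjusted p = 0.0022) and -1.01 (SE 0.162, adjusted p = 0.000276).

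Cdon was lower in KO at E14.5, and Boc was not called at any stage. The Cdon libraries of KO at E14.5 held 145.5, 148, 144 and 142 CPM, all under the lowest WT library of 157 CPM. The log2 difference was -0.15 (SE 0.0357, edgeR adjusted p = 0.0394), and it was lost in 7 of the 8 fits that left out 1 library, with adjusted p up to 0.249; only the fit without WT replicate 2 kept it. The ribosomal RNA gene took 2.68 and 2.55% of counts in KO replicates 3 and 4 of that stage and 0.869 to 1.17% in the other 6 libraries; with its share as a covariate the Cdon difference was -0.14 (SE 0.0394) and no longer passed (adjusted p = 0.125), while Ptch1 (0.00471) and Gli3 (0.0312) did. At E12.5 KO replicate 1 had 98.4 CPM and the other KO libraries 170 to 186 CPM, around the WT range. At E16.5 and PND0 the differences were -0.13 (interval -0.57 to 0.32) and -0.05 (interval -0.27 to 0.18). For Boc the differences ran from -0.14 at E12.5 and PND0 to -0.03 at E16.5, with adjusted p of 0.639 or more.

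Smo, the membrane protein that sterols bind and that passes the signal to the Gli proteins (chromosome 6, 29735503 to 29761365, plus strand), fell in WT at each step without overlap. The WT values were 185, 154, 112 and 157 CPM at E12.5, 99.6, 92.3, 107 and 106 CPM at E14.5, 48.5, 52.8, 63.7 and 62.8 CPM at E16.5, and 38.1, 40.2, 36.6 and 39.5 CPM at PND0. The log2 changes were -0.61, -0.81 and -0.59, with edgeR adjusted p of 0.00497, 2.94e-06 and 0.000121.

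No call was made for Smo between genotypes. At E14.5 the KO libraries held 97.5, 98, 103 and 105 CPM, within the WT range, and the difference was 0.00 (95% interval -0.09 to 0.09). At E16.5 it was -0.01 (interval -0.19 to 0.18). At PND0 the KO libraries held 44.2, 47.7, 50.5 and 39.9 CPM, all above the WT mean of 38.6 CPM and 3 of them above every WT library, while Ptch1 was lower in the same libraries. That difference was 0.23 (interval 0.02 to 0.45, unadjusted p = 0.035, edgeR adjusted p = 0.233). At E12.5 it was -0.21 (interval -0.53 to 0.11), with the KO libraries at 124.9, 134, 143 and 130 CPM, and -0.08 (interval -0.37 to 0.20) without replicate 1 of both genotypes.

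Gli1, the transcription factor whose own transcript follows pathway activity (chromosome 10, 127329882 to 127341974, minus strand), was high at E12.5 and low afterwards. The WT libraries held 68.7, 25.2, 17.7 and 24.4 CPM at E12.5 and 9.42, 9.39, 11 and 11.9 CPM at E14.5. They held 10.3, 8.83, 11.3 and 11.4 CPM at E16.5 and 8.09, 8.11, 5.48 and 15.6 CPM at PND0. The fall from E12.5 to E14.5 was 1.73 on the log2 scale (SE 0.415, edgeR adjusted p = 0.00707); without WT replicate 1 of E12.5 it was a change of -1.12 (SE 0.132, adjusted p = 1.29e-05). The later 2 steps, 0.02 and -0.18, did not pass.

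The E12.5 libraries with more muscle, cartilage and skin transcripts also held more Gli1. WT replicate 1, at 68.7 CPM of Gli1, had 746 CPM of those markers, and WT replicates 2, 3 and 4 had 383, 286 and 366 CPM. The KO libraries held 21.5, 17.6, 15.9 and 19.2 CPM of Gli1 with 351, 246, 244 and 309 CPM of the markers. All 7 markers were lower in KO at E12.5 by sign and none was called. WT replicate 1 also held the most oligodendrocyte precursor markers (289 CPM, against 73.5 to 128 CPM in the other E12.5 libraries). The same held for meninges and mesenchyme markers (3170 CPM, against 687 to 2740 CPM), and it had the fewest neuron markers (2360 CPM, against 3080 to 4320 CPM). The part of all these markers in the Gli1 values was not tested. The Gli1 difference between genotypes was -0.90 (interval -1.77 to -0.03, unadjusted p = 0.0446, edgeR adjusted p = 0.875). It became -0.29 (SE 0.161) without WT replicate 1, -1.11 (SE 0.356) without WT replicate 3, and -0.38 (SE 0.147) without replicate 1 of both genotypes. The first 2 of these values were the ends of the range with 1 library left out, and no such fit passed the threshold.

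**Figure D4:**
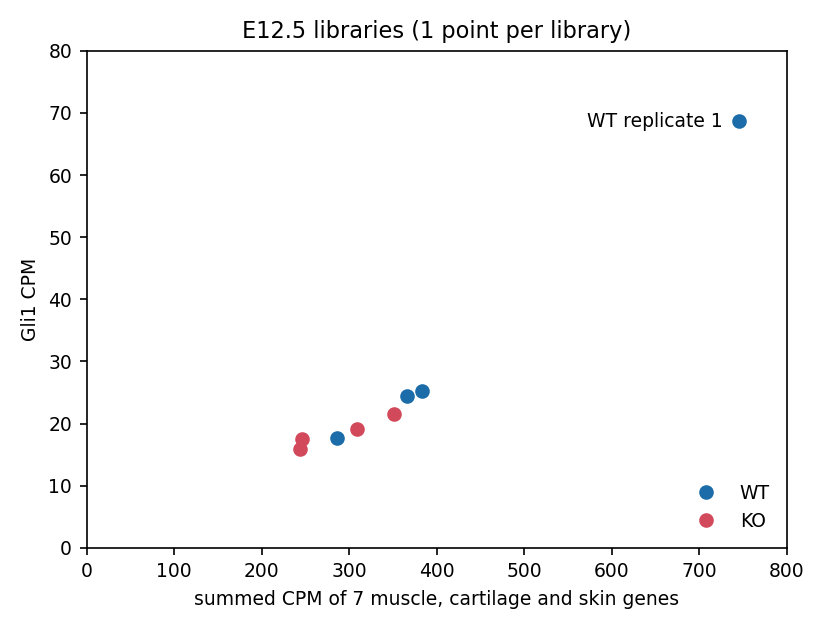
Gli1 CPM against the summed CPM of 7 muscle, cartilage and skin genes in the 8 libraries of E12.5, WT in blue and KO in red. WT replicate 1 lies far from the rest at 746 and 68.7 CPM, and the other 7 libraries lie between 15.9 and 25.2 CPM of Gli1.

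At E16.5 Gli1 was the only one of the 9 genes whose groups did not overlap. The KO libraries held 7.05, 7.33, 7.73 and 8.77 CPM, each below the lowest WT library of 8.83 CPM. The log2 difference was -0.45 (SE 0.122, interval -0.71 to -0.19), with an unadjusted p of 0.00246 and an edgeR adjusted p of 0.262. It stayed between -0.52 and -0.40 with 1 library left out and was never past the threshold. At this stage 6.39% of all genes had groups that did not overlap and 0.0462% passed the threshold, so the count of 1 in 9 is not large against that background. Radial glia markers summed to 1280 to 1400 CPM in KO and 1430 to 1590 CPM in WT at E16.5, with 7 of 8 on the lower side, and blood markers to 472 to 699 CPM in KO and 638 to 1270 CPM in WT. Their part in the Gli1 difference was not tested. At PND0 the KO libraries held 8.44, 6.63, 8.77 and 6.02 CPM, within the WT range (-0.33, interval -0.92 to 0.26), and at E14.5 they held 9.61, 8.39, 10.7 and 9.15 CPM (-0.14, interval -0.37 to 0.09).

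Gli2, the main activator, and Gli3, the main repressor, fell most between E14.5 and E16.5. Gli2 (chromosome 1, 118834132 to 119053619, minus strand) held 78.4, 65, 37.9 and 63.2 CPM in WT at E12.5, 54.3, 51.3, 58.7 and 54.6 CPM at E14.5, 12.45, 13.6, 19.2 and 15.9 CPM at E16.5, and 12.4, 11.8, 12 and 15.6 CPM at PND0. Its change from E14.5 to E16.5 was -1.82 (SE 0.109, edgeR adjusted p = 9.15e-09), the deepest of the 9 genes at that step. The changes before and after it were -0.19 and -0.27, with adjusted p of 0.428 and 0.155.

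Gli3 (chromosome 13, 15463235 to 15730026, plus strand) fell at every step without overlap. Its WT libraries held 130, 143, 107 and 136 CPM at E12.5, 80.1, 84.2, 93.4 and 84.4 CPM at E14.5, 22.8, 28.5, 41.6 and 35.3 CPM at E16.5, and 14, 11.1, 16.54 and 16.9 CPM at PND0. The log2 changes were -0.62, -1.39 and -1.15, with edgeR adjusted p of 0.000269, 0.000171 and 0.000151. In CPM per kb, Gli3 thus began above Gli2, and its mean ended below the lowest Gli2 library.

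Gli3 was lower in KO at E14.5 and Gli2 was not called at any stage. The Gli3 libraries of KO at E14.5 held 75.5, 70.4, 75.3 and 74.6 CPM, below all WT libraries, and the log2 difference was -0.20 (SE 0.0476, edgeR adjusted p = 0.0257). It was lost in 5 of the 8 fits with 1 library left out (WT replicate 3 or 4, or KO replicate 1, 2 or 4), with adjusted p up to 0.242. At E16.5 and PND0 its differences were -0.04 (interval -0.49 to 0.42) and -0.15 (interval -0.52 to 0.21). Gli2 differed by -0.45 (interval -0.95 to 0.05) at E12.5, where KO replicate 1 had 32.4 CPM and the other KO libraries 46.5 to 51.4 CPM (-0.18, interval -0.67 to 0.31, without replicate 1 of both genotypes), by -0.09 (interval -0.20 to 0.01) at E14.5, 0.03 (interval -0.24 to 0.30) at E16.5 and 0.09 (interval -0.22 to 0.41) at PND0.

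Seen by stage, the knockout brains had 0 of the 9 genes called at E12.5, 3 lower at E14.5, 0 at E16.5 and 1 lower at PND0, and none was called higher. Over all genes tested, 0.0177% were called at E12.5 and 0.308% were called lower at E14.5. By edgeR, 2 of the 9 had an unadjusted p under 0.05 at E12.5, as did 796 of all 16948 genes tested. At E16.5 it was 1 of the 9, beside 2001 of 17328 genes, and 1 in 9 is near that share. At E14.5 it was 3 of the 9, beside 1557 of 17837 genes, and at PND0 3 of the 9, beside 3130 of 17420 genes. DESeq2 called none of the 9 at E12.5, where 3 had an unadjusted p under 0.05, as did 1143 genes in all. At E16.5 DESeq2 gave none of the 9 an adjusted p. There 1, Gli1, had an unadjusted DESeq2 p under 0.05 (0.00205), as did 1884 genes in all. How many genes had a DESeq2 p-value was not recorded, so these DESeq2 counts cannot be read as shares. The 4 KO and 4 WT libraries did not overlap for 0 of the 9 genes at E12.5 (2.53% of all genes tested), for 3 at E14.5 (4.77%), for 1 gene at E16.5 (6.39%) and for 1 gene at PND0 (11.9%). By sign alone, 8, 8, 8 and 7 of the 9 genes were lower in KO. The median log2 difference was -0.21, -0.09, -0.04 and -0.15, beside a median of 0.00 over all genes at each stage. At E12.5, without replicate 1 of both genotypes, 7 were lower and the median was -0.04. At E14.5 the differences called were small, from -0.20 to -0.15. At that stage the 8 ventral forebrain and hypothalamus markers summed to 190 to 208 CPM in KO and 212 to 235 CPM in WT, and the 6 oligodendrocyte precursor markers to 75.9 to 80.5 CPM in KO and 78.9 to 88.9 CPM in WT, with 1 gene of each list, Lhx6 and Olig1, called lower. Their part in the result was not tested. The first list shares Nkx2-1 and Sim1, and the second Olig2, with the ventral genes induced by Shh below. These sums are therefore not independent of the pathway lists.

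**Figure D5:**
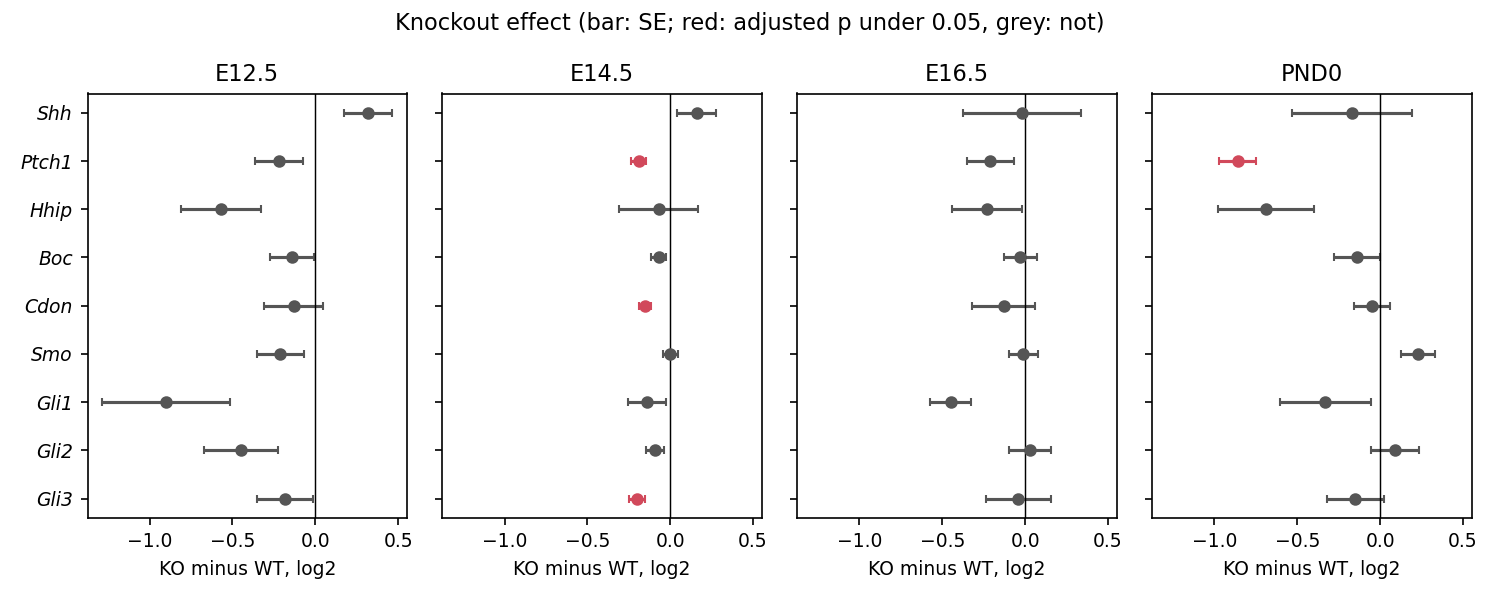
Log2 difference, KO minus WT, with its SE for the 9 genes at the 4 stages, from 4 against 4 libraries each. Red marks an edgeR adjusted p under 0.05: Ptch1, Cdon and Gli3 at E14.5 (-0.19, -0.15 and -0.20) and Ptch1 at PND0 (-0.86).

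Of 63 further genes in 7 lists, chosen with earlier results of these data known, 58 to 61 were tested at a stage and 1 was called, Btrc at PND0. That is 1.67% of the 60 tested, near the 1.03% of all genes called lower at that stage. Btrc encodes the ubiquitin ligase subunit that marks Gli proteins for processing or breakdown. Its WT libraries ran from 61.5 to 72.8 CPM and its KO libraries from 36.8 to 54 CPM without overlap, a log2 difference of -0.52 (SE 0.112, edgeR adjusted p = 0.0338). The median log2 difference of the 63 genes was -0.03, -0.02, 0.02 and -0.07 by stage. At the 3 WT steps 46.8%, 65% and 43.3% of those tested were called, beside 57.8%, 57.5% and 53.2% of all genes. Lower were 29%, 51.7% and 21.7% of them, beside the 30.5%, 28.2% and 27.2% of all genes given above.

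Among ligands and ligand-processing genes (5 or 6 of 7 tested), none was called in KO. The Scube2 libraries, for a secreted protein that helps release ligand, ran from 0.836 to 2.48 CPM in KO and 2.47 to 5.28 CPM in WT at PND0 (log2 difference -1.0, SE 0.343, edgeR adjusted p = 0.14). Among the 5 other receptors and coreceptors none was called. Gas1, a coreceptor, was at 52.7 to 61.7 CPM in KO and 62 to 69.5 CPM in WT at E14.5 (-0.17, SE 0.0508, adjusted p = 0.168), and Gpr161, a ciliary receptor that opposes the pathway, at 115 to 126 CPM in KO and 126 to 158 CPM in WT at PND0 (-0.27, SE 0.0802, adjusted p = 0.0962). At E12.5 Gpc3 had the smallest p of that list (-0.83, SE 0.552, adjusted p = 0.875).

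None of the 11 genes of the cilium and Smo transport passed. Arrb2, an arrestin, was at 61.2 to 72.7 CPM in KO and 50.6 to 59.4 CPM in WT at PND0 (0.29, SE 0.0883, edgeR adjusted p = 0.106). Evc2, a partner of Smo at the cilium base, was at 19.3 to 23.4 CPM in KO and 20.9 to 32.2 CPM in WT at E12.5 (-0.33, SE 0.144, adjusted p = 0.875). Of the 13 Gli regulators, Sufu, which holds Gli proteins inactive, was at 69.9 to 78.6 CPM in KO and 79.3 to 80.8 CPM in WT at E14.5 (-0.12, SE 0.0459, adjusted p = 0.412). Prkaca, a catalytic subunit of protein kinase A, was at 146 to 160 CPM in KO and 126 to 146 CPM in WT at E16.5 (0.16, SE 0.0597, adjusted p = 0.35).

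None of the tested genes of the 3 target lists was called in KO at any stage. Among 12 other Hedgehog target genes (10 to 12 tested), Ccnd2, a cyclin, was at 566 to 606 CPM in KO and 593 to 672 CPM in WT at E14.5 (-0.12, SE 0.0326, edgeR adjusted p = 0.12). Ccnd1 was at 25.1 to 34.4 CPM in KO and 31.3 to 39.5 CPM in WT at E16.5 (-0.27, SE 0.0967, adjusted p = 0.343), and Rab34 at 50.5 to 61.6 CPM in KO and 38.2 to 50.1 CPM in WT at PND0 (0.33, SE 0.111, adjusted p = 0.133). The median of this list was -0.15, -0.06 and -0.02 at E12.5, E14.5 and E16.5 in turn. At PND0 it was 0.16, with 7 of 12 on the higher side, on the other side of 0 from Ptch1 and Hhip.

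Of 9 genes induced by Shh in the ventral neural tube, 8 were tested at each stage. In KO, 7 of the 8 were on the higher side at E12.5 (median 0.17) and 1 of the 8 at PND0 (median -0.19). Nkx2-2, a ventral progenitor factor, was at 4.59 to 6.46 CPM in KO and 6 to 9.38 CPM in WT at PND0 (log2 difference -0.47, SE 0.194, edgeR adjusted p = 0.211). Nkx2-1 was at 71.1 to 80.3 CPM in KO and 36.2 to 81.1 CPM in WT at E12.5 (0.39, SE 0.234, adjusted p = 0.875). Of 7 genes that Shh represses in the dorsal or intermediate neural tube, Dbx1 was at 60.2 to 76.3 CPM in KO and 40.8 to 66.9 CPM in WT at E12.5 (0.47, SE 0.148, adjusted p = 0.875). Over the 4 stages in turn their median was 0.08, -0.12, -0.10 and -0.27, beside 0.17, -0.05, 0.03 and -0.19 for the ventral genes.

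Across the 16 WT libraries, Hhip stood off from the other members, and Gli1 ran less closely with most of them. Boc and Gli2 (Pearson r of log2 CPM 0.99), Cdon and Gli3 (0.98) and Smo and Gli3 (0.98) ran closest together. Hhip had r between -0.17 and 0.23 with all members other than Gli1, with which it had 0.57. Gli1 had r between 0.56 and 0.75 with the rest, which reached the lowest r among those, 0.73 for Ptch1 and Cdon. The Gli1 values include E12.5 WT replicate 1 at 68.7 CPM. These points share stages and tables, so the values are a description. Among 16107 genes of at least 1 CPM, the closest to Cdon were Ccna2 (r = 0.989), Ccnd2 (0.989) and Troap (0.988), and those closest to Gli3 were Tgif2, Cemip2 and Exo1 (each 0.993). For Smo they were Inppl1 (0.995), Igf2bp3 (0.994) and Ajuba (0.993), for Boc Mapkapk2 (0.994), Nup50 (0.992) and Zfp217 (0.991), and for Gli2 Smarcc1 (0.994), Boc (0.989) and Ddx19a (0.987). Gli1 was closest to Snai1 (0.956), Capn6 (0.953) and Rtl3 (0.953), Ptch1 to Sim2 (0.955), Laptm4b (0.952) and Dlk1 (0.949), and Shh to Rcn2 (0.962), Dlk1 (0.960) and E2f6 (0.950). Hhip had the weakest matches, with Zswim7 (0.906), Stx17 (0.885) and Lacc1 (0.874).

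Counting could have mixed some reads. Exons on the opposite strand overlap those of Gli1 (Arhgap9), Shh (9530036O11Rik) and Gli3 (Gm6556), and the strand setting of the counting is not given in the sources used here. Over all 32 libraries Gli1 had 7839 counts against 411 for Arhgap9, Shh 4710 against 195 and Gli3 37778 against 1064, so these 3 levels carry that uncertainty. No protein-coding gene shared exons with Ptch1.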

How the data were processed

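Total RNA from whole brain was enriched for polyadenylated transcripts and sequenced as paired reads, per the labels' protocols. The authors deposited 4 tables of raw counts per gene symbol, 1 per stage. HISAT2, SAMtools, featureCounts, DESeq2 and build mm10 are named in the submitters' processing notes; versions, annotation and strand setting are not given in the sources used here. The 9 genes and all lists were chosen with earlier results of these data known. Library pairs within a group differed by more than sampling noise (48 pairs, chi-square per degree of freedom 2.899 to 114.7).

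Each comparison was fitted on all genes with edgeR 4.0.16 in R 4.3.3: robust quasi-likelihood F tests after TMM scaling and filterByExpr (count of at least 10, total of at least 15), with a Benjamini-Hochberg threshold of 0.05. The 8 fits were 4 KO against WT, 3 WT steps and the change of the KO effect with stage, adjusted separately. Signs are those of KO less WT, or of the later less the earlier stage; the SE is the size of the change over the square root of F. The code was tested on simulated data. Named genes are the 9, Dhcr7, any other listed gene past the threshold and that of smallest p in each list and KO comparison, of which those that matter most are given, and the 3 most alike in WT. Exonic lengths and positions are from GENCODE M21 (GRCm38), promoters from RefSeq (GRCm38.p6). Alternatives were RLE factors, no filter, DESeq2 1.42.0, a replicate block, 1 fit of all 32 libraries, sex-gene, length and ribosomal RNA (CT010467.1) corrections, and each library left out.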

Additional observations from a re-analysis of the deposited data

Results flagged for a closer look

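Of 72 groups of 4 libraries (9 genes, 8 groups), 4 had 1 library farther from the rest than Dixon's 95% limit allows, where chance flags about 1 in 20. Gli1 was at 68.7 CPM in E12.5 WT replicate 1, the library with the most muscle, cartilage and skin transcripts, and at 17.7 to 25.2 CPM in the other 3. Gli2 was at 15.6 CPM in PND0 WT replicate 4 and at 11.8 to 12.4 CPM in the other 3; that library also held the most Gli1 and Hhip of its group. Boc was at 83.1 CPM in E14.5 KO replicate 4 and at 77.9 to 78.3 CPM in the other 3. Cdon was at 81.4 CPM in E16.5 KO replicate 4 and at 65.4 to 66.1 CPM in the other 3.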

How the results depend on the processing

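The 28 changes of the 9 genes with an unadjusted p under 0.05 were followed over 372 alternatives. Of these, 330 kept their direction and side of the threshold, 42 kept their direction but fell short of it and none reversed. Changes not called in the main fit could not fall short, so their alternatives count among the 330 whatever their size. Gli1 at E12.5, from -0.90 to -0.29 without WT replicate 1, is 1 such case. All 72 group levels moved by less than 1 SD under TMM within a stage. Of the 3 genes lower in KO at E14.5, 0 remained called in 1 fit of all 32 libraries, 2 with the ribosomal RNA covariate (Cdon did not), and 0 to 3 with 1 library left out. The count of 1 lower at PND0 became 0 with the ribosomal RNA covariate, while every fit with 1 library left out gave 1. The 1 gene higher in WT from E14.5 to E16.5 became 0 with DESeq2, 0 in 1 fit of all libraries, and 0 to 1 with 1 left out. Members with a KO effect that changed with stage went from 0 to 1 with DESeq2 and 0 to 1 with 1 library left out. The causes were not tested.

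Calls over all genes moved more: at PND0 from 250 to between 2 (ribosomal RNA covariate) and 1205 (1 fit of all libraries), with 63 under length offsets, 921 by DESeq2, 1091 unfiltered, and 35 to 263 with 1 library left out. They moved from 94 to between 4 and 146 at E14.5 (52 to 155 with 1 left out), from 8 to between 3 and 233 at E16.5 (3 to 14), from 3 to between 2 and 52 at E12.5 (1 to 5), and from 5 to between 0 and 344 for the change with stage (0 to 797, the highest without E12.5 KO replicate 1). Same-numbered WT and KO libraries did not in general deviate together (correlations -0.276 to 0.303). The highest values, at E12.5 for replicates 1 and 3 (0.274 and 0.303), were the best matches of those libraries. With 4 libraries per group the check cannot exclude a pairing. A replicate block gave 6, 131, 5 and 356 calls by stage and 0 for the change with stage. It gave Ptch1 at PND0 an edgeR adjusted p of 0.00644.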
